A study of Mus musculus with 6 samples.

Results

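Cathepsins are the proteases that break down proteins in lysosomes and endosomes, and 10 cathepsin genes (Ctsa, Ctsb, Ctsc, Ctsd, Ctse, Ctsh, Ctsk, Ctsl, Ctss and Ctsz) were followed on 6 microarrays. Their probes were taken by name. Every non-control probe with any of these 10 gene names in the scanner files was included, giving 18 of the 56598 probes measured. The genes themselves were chosen with earlier results of these data known. All 10 genes passed the filter on dim probes and are among 19500 genes tested. The cells were bone marrow monocytes of C57BL/6J mice aged 6 to 8 weeks, isolated by magnetic sorting and kept for 60 h in M-CSF at 20 ng/mL, the growth factor under which monocytes become macrophages. The 3 control samples received M-CSF alone. The 3 IFN-beta samples also received 100 U of mouse IFN-beta, a type I interferon. No genetic change is named in the labels, and nothing there says whether replicates came from separate mice, pools or cultures, so p-values measure only the spread between these samples, which may be technical.

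Most cathepsins are made as inactive precursors, carried to the lysosome on mannose 6-phosphate receptors and activated there by cleavage at acid pH. Ctsb, Ctsc, Ctsh, Ctsk, Ctsl, Ctss and Ctsz encode cysteine proteases of the papain family, Ctsd and Ctse encode aspartic proteases, and Ctsa encodes a serine carboxypeptidase. In macrophages and dendritic cells these enzymes digest engulfed protein and trim the invariant chain that holds MHC class II molecules, and cystatins, stefins and some serpins restrain them.

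Before the values, 4 promoter windows show how the stretches before the members' starts differ for sequence elements often discussed for interferon-regulated and lysosomal genes. RefSeq (GRCm38.p6) gave 8 windows for 7 of the 10 members: Ctsa with 2, Ctsc, Ctsd, Ctsk, Ctsl, Ctss and Ctsz. Each was read from 250 bases before to 30 bases after the start. Both strands were searched for GAAANNGAAA, the core of the interferon-stimulated response element, and for CACGTG, the palindromic E-box at the centre of the element known from lysosomal genes. Matches are in capitals, and the matches of the pair of motifs did not overlap. Ctss was the member with the interferon core. Ctsd and the second Ctsa window held the E-box at 2 places each. The window of Ctsz, a gene that rose, held neither.
Ctss, chr3:95526536-95526815, plus strand: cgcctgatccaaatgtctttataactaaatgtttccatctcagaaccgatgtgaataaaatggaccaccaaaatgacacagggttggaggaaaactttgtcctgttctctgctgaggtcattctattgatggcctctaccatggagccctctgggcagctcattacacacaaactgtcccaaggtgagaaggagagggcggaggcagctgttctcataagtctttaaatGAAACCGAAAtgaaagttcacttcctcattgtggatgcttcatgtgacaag
Ctsd, chr7:142387798-142388077, minus strand: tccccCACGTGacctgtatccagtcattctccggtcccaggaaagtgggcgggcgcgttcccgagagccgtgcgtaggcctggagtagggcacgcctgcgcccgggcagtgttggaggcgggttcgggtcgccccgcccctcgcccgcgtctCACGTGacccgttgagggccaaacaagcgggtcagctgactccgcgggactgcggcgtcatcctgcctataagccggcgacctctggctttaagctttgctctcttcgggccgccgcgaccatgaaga
Ctsa, chr2:164833523-164833802, plus strand: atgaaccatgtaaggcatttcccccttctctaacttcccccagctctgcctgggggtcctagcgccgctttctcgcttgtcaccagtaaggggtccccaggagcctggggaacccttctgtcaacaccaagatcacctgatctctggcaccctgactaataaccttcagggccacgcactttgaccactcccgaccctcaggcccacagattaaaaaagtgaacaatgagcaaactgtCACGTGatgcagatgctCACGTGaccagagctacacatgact
Ctsz, chr2:174439010-174439289, minus strand: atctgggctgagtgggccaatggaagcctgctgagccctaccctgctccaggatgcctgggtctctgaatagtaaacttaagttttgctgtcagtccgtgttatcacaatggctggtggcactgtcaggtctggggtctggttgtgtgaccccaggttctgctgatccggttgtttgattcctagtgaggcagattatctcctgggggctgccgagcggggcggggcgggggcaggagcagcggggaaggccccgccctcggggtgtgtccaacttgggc

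The interferon core of Ctss began 21 bases before the start, and 3.28% of 32851 windows of this length hold that motif. The E-boxes of Ctsd began 245 and 98 bases before the start and the first E-box of Ctsa 12 bases before it, its second lying just past the start. Ctsl held 1 E-box, 236 bases before the start. Of all windows 6.79% hold CACGTG. These matches describe letters only, and factor binding was not measured.

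Levels are log2 of the processed spot signal minus the 75th percentile of the array, so a level of 0 equals that percentile and a difference of 1 is a doubling. Controls 1 and 2 stood apart from control 3. Their 75th percentiles were 549 and 528, that of control 3 was 305, and those of the IFN-beta arrays ran from 236 to 244. The share of probes well above background was 63.9% and 63.3% on this pair and 49.0% to 52.5% on the other 4 arrays. Of 12 monocyte and macrophage markers, 12 lay well above background on each array. The 17 fibroblast markers all did so on controls 1 and 2, against 7 to 8 of 17 on the other arrays. No probe was saturated, the number of arrays limits the precision, and 4 of the members are represented by several probes. The members are therefore also given against control 3 alone and against controls 1 and 2, and for other genes named here the text says where a call was lost against control 3.

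With IFN-beta, 2 of the 10 cathepsins rose and none fell. Ctse, an aspartic protease of endosomes, rose 2.83-fold, and Ctsz, a carboxypeptidase also called cathepsin X, rose 1.94-fold (limma, Benjamini-Hochberg adjusted p = 0.0049 and 0.0138). The other 8 missed the threshold of 0.05, and their fitted log2 fold changes ran from -0.12 for Ctsk to 0.58 for Ctsh. Over all 19500 genes, 3866 passed, or 19.8%, of which 11.8% were higher and 8.03% lower, so 2 of 10 is close to the share of genes at large. The median log2 fold change of the members was 0.44, against 0.10 over all genes tested. Of the 10 values 9 were positive, against 7 under quantile normalization and 8 in the deposited value table. Over all 19500 genes 11321 values were positive in the main fit. The IFN-beta and control arrays did not overlap for 6 members (Ctsd, Ctse, Ctsh, Ctsl, Ctss and Ctsz), and they did not overlap for 40.2% of all genes. Ctse was the 1 member called when control 1 was left out, and again when control 2, IFN-beta 2 or IFN-beta 3 was; Ctsz then had an adjusted p of 0.0631, 0.0596, 0.054 and 0.0593 in turn. Without control 3 the count was 8, all higher, where 6448 of the 19500 genes were called higher. In whole cultures, fewer cells that express a gene and less of its RNA per cell cannot be told apart.

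**Figure D1:**
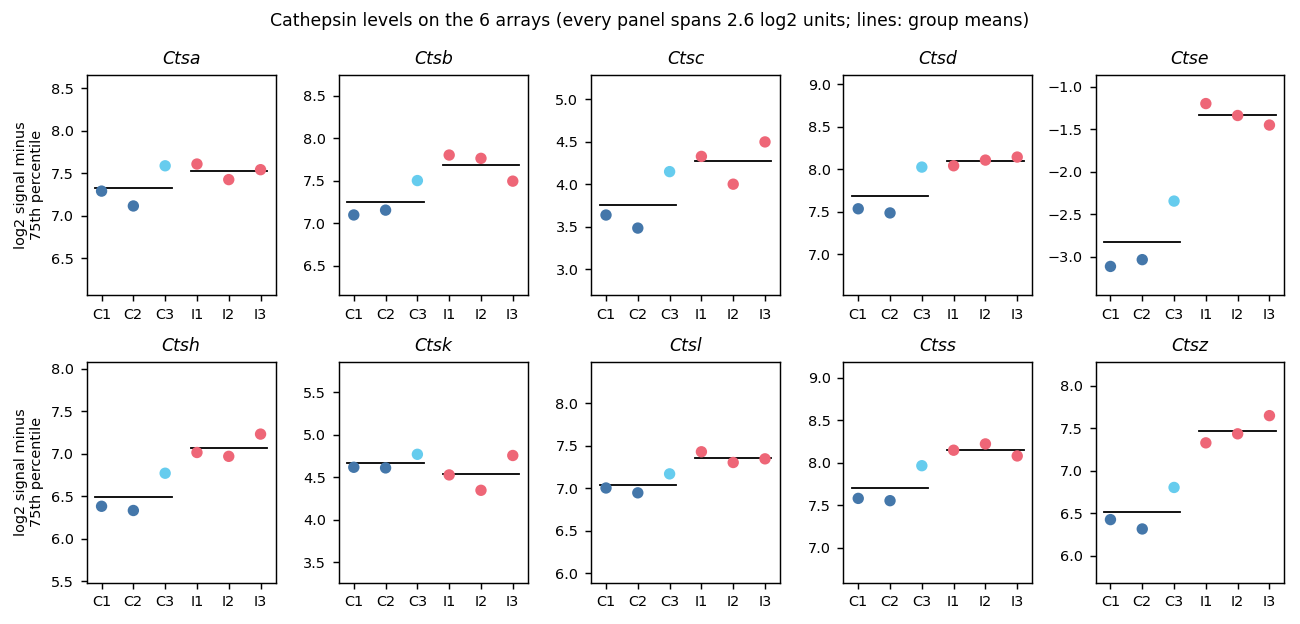
Level of each cathepsin on control arrays 1 to 3 (C1 to C3, blue, control 3 in light blue) and IFN-beta arrays 1 to 3 (I1 to I3, red), as log2 signal minus the 75th percentile, with a line at each group's mean. Every panel spans the same range, so slopes can be set against each other but levels cannot: Ctse moved from a control mean of -2.83 to -1.33 and Ctsz from 6.52 to 7.47, while the Ctsk means were 4.67 and 4.54.

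The aspartic proteases are Ctse and Ctsd. The level of Ctse (probe A_55_P2714921, mm9 chr1:133571990-133572049) was -3.11, -3.03 and -2.35 on the controls, in replicate order here and throughout, and -1.20, -1.34 and -1.45 with IFN-beta. Every IFN-beta array lay above every control, and control 3 lay above the other controls. The fitted rise was 1.50 ± 0.23 log2 units (SE, 3 against 3 arrays), and against control 3 alone it was 1.02 ± 0.21 (adjusted p = 0.0381). Ctse was dim but well above background on all 6 arrays. Its processed signal before any scaling was 63.4, 64.5 and 60.1 on the controls and 107, 93.5 and 88.4 with IFN-beta. Of the 10 members it was the only one whose unscaled signal was higher on every IFN-beta array than on every control. For Ctsa, Ctsb, Ctsd, Ctsk, Ctsl and Ctss the unscaled signal was lower on every IFN-beta array than on every control. For Ctsc, Ctsh and Ctsz it overlapped between the groups. The positive fitted values of these members other than Ctse thus depend on the scaling between arrays.

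Ctsd, the main aspartic protease of lysosomes, stood at 7.53, 7.49 and 8.02 on the controls and at 8.04, 8.11 and 8.14 with IFN-beta. The groups did not overlap, but control 3 nearly reached the lowest IFN-beta array. Its log2 fold change of 0.42 ± 0.19 missed the threshold (adjusted p = 0.163), with a 95% interval from -0.03 to 0.86, and was 0.07 against control 3 (adjusted p = 0.85). Under quantile normalization the value was -0.01, so no direction is given for Ctsd.

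Among the exopeptidases, which remove residues from the ends of proteins, Ctsz (probe A_51_P256202, mm9 chr2:174253228-174253287) stood at 6.43, 6.32 and 6.81 on the controls and at 7.33, 7.44 and 7.65 with IFN-beta. The lowest IFN-beta array lay well above the highest control, which again was control 3. This was a rise of 0.96 ± 0.19 log2 units. Against control 3 alone it was 0.67 ± 0.22 and missed the threshold (adjusted p = 0.133).

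Ctsh encodes an aminopeptidase. Its level was 6.38, 6.33 and 6.77 on the controls and 7.01, 6.97 and 7.23 with IFN-beta. The groups did not overlap. The log2 fold change of 0.58 ± 0.19 lay just outside the threshold (adjusted p = 0.0656), with a 95% interval from 0.14 to 1.01, and was 0.30 against control 3 (adjusted p = 0.441).

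Ctsc encodes dipeptidyl peptidase I, which activates the serine proteases of granules. It was measured at 3.64, 3.49 and 4.15 on the controls and at 4.33, 4.0 and 4.50 with IFN-beta. Control 3 lay above IFN-beta 2, so the groups overlapped. Its fitted change was 0.52 ± 0.23 (adjusted p = 0.149) and 0.13 against control 3 (adjusted p = 0.794).

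Ctsa encodes the protective protein that holds beta-galactosidase and neuraminidase 1 together in the lysosome. Its level was 7.29, 7.12 and 7.59 on the controls and 7.61, 7.43 and 7.54 with IFN-beta, and control 3 lay inside the range of the IFN-beta arrays. The log2 fold change was 0.19 ± 0.18 (adjusted p = 0.473), with a 95% interval from -0.23 to 0.61. It was -0.06 against control 3, so Ctsa has no settled direction.

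The endopeptidases of the cysteine family are Ctsb, Ctsl, Ctss and Ctsk. Ctss, which trims the invariant chain in antigen-presenting cells, stood at 7.58, 7.55 and 7.96 on the controls and at 8.15, 8.22 and 8.08 with IFN-beta. The groups did not overlap, and the gap between control 3 and IFN-beta 3 was small. Its log2 fold change was 0.45 ± 0.18 (adjusted p = 0.111), and 0.18 against control 3 (adjusted p = 0.61). Under quantile normalization the value was 0.00.

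Ctsb, an abundant lysosomal endopeptidase, stood at 7.10, 7.15 and 7.50 on the controls and at 7.80, 7.76 and 7.50 with IFN-beta. Control 3 and IFN-beta 3 coincided. Its change was 0.44 ± 0.19 (adjusted p = 0.134), with 0.19 against control 3 (adjusted p = 0.65).

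Ctsl, which trims the invariant chain in thymic epithelium and degrades protein in lysosomes of most cells, stood at 7.0, 6.95 and 7.17 on the controls and at 7.43, 7.30 and 7.35 with IFN-beta. The groups did not overlap. The log2 fold change was 0.32 ± 0.16 (adjusted p = 0.18) and 0.19 against control 3 (adjusted p = 0.597). This probe was printed on 10 spots of each array, and 9 or 10 of them entered each mean. The SD between spots on an array ran from 0.06 to 0.11 on the log2 scale, which covers spotting and scanning on an array and not the spread between samples.

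Ctsk, the collagen-cleaving cathepsin of osteoclasts and activated fibroblasts, was the member with a negative fitted value. Its level (probe A_55_P1961335, mm9 chr3:95313165-95313224) was 4.62, 4.61 and 4.77 on the controls and 4.53, 4.35 and 4.76 with IFN-beta. The groups overlapped, with control 3 and IFN-beta 3 at nearly the same level. The log2 fold change was -0.12 ± 0.17 (adjusted p = 0.645), with a 95% interval from -0.52 to 0.28, so a change of 1 log2 unit in either direction lies outside it.

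Fibroblasts can also express Ctsk, so it was set beside their markers. The median level of the 17 fibroblast markers was 3.41 and 3.96 on controls 1 and 2, -4.76 on control 3, and -5.06, -4.10 and -3.77 on IFN-beta 1, 2 and 3. Summed over the markers, the signal was 624 and 721 times the 75th percentile on controls 1 and 2, 2.11 times on control 3 and 2.88 to 3.42 times with IFN-beta. Some of the markers, such as Col3a1, Lum, Pdgfra and Postn, were well above background on 2 arrays only, controls 1 and 2. Others were so on more arrays: Dcn on 3, Mmp2 on 4, and Col1a1, Col1a2, Thy1, Fn1 and Sparc on every array. Sparc, the marker highest on those controls, stood at 7.03 and 7.19 there and at -3.00 on control 3. Ctsk stood at 4.77 on control 3 and at 4.62 and 4.61 on controls 1 and 2. Control 3 lay 0.16 above the mean of controls 1 and 2 for Ctsk, against a median of 0.35 over all genes tested. Relative to the mean of the other 9 members on each array, Ctsk was -0.92, -0.87 and -1.19 on the controls. With IFN-beta it was -1.75, -1.86 and -1.52 in that measure. The part of stromal RNA in the Ctsk signal was not tested. The fitted change was -0.23 ± 0.24 against control 3 (adjusted p = 0.598) and -0.07 ± 0.15 against controls 1 and 2 (adjusted p = 0.722).

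Ctsk was also set beside Acp5, the tartrate-resistant phosphatase of osteoclasts and mature macrophages. Acp5 stood at 5.72, 5.14 and 3.42 on the controls and at 2.54, 2.48 and 2.89 with IFN-beta, a log2 fold change of -2.12 ± 0.53 (adjusted p = 0.0293). Against control 3 alone Acp5 was not called (-0.79 ± 0.25, adjusted p = 0.114). Of 10 osteoclast markers tested, 2 rose and 2 fell, and the calcitonin receptor gene Calcr was well above background on 0 arrays. Itgb3 rose by 1.13 and Mmp9 by 1.39, and Dcstamp, which encodes a protein needed for cell fusion, fell by 1.14 on the log2 scale. Against control 3 the calls were Itgb3 and Car2 higher (1.43 and 1.54) and Dcstamp lower (-1.76), and Mmp9 was not called (0.79, adjusted p = 0.396).

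**Figure D2:**
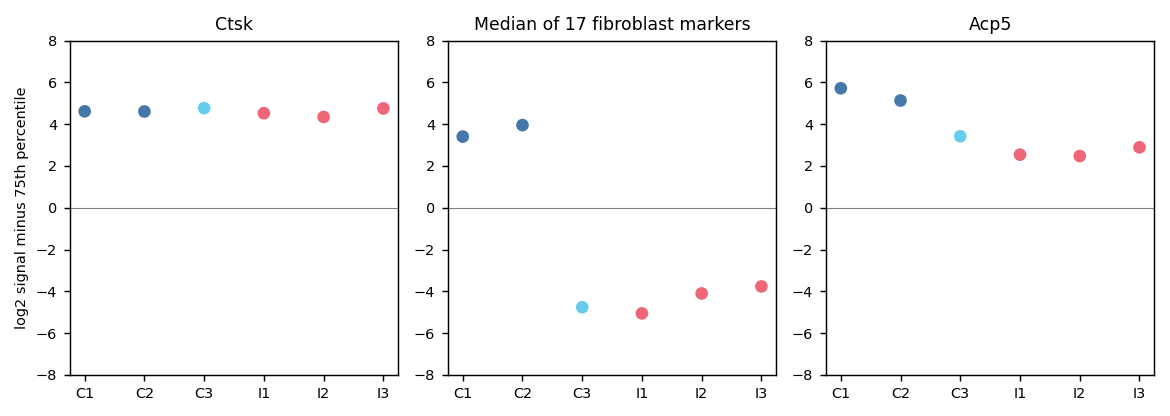
Level of Ctsk, the median of the 17 fibroblast markers and the level of Acp5 on control arrays 1 to 3 (C1 to C3) and IFN-beta arrays 1 to 3 (I1 to I3), as log2 signal minus the 75th percentile on one axis range. The fibroblast median drops from 3.96 on control 2 to -4.76 on control 3, whereas Ctsk stays between 4.35 and 4.77 on all 6 arrays.

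Which controls were used set how many cathepsins passed. Against control 3 alone 1 member was called, Ctse, where 9.56% of all genes were called; the members' median was 0.18 and that of all genes -0.10. That fit takes the spread of its lone control from the IFN-beta arrays. Against controls 1 and 2, 8 of 10 members were called and all 8 were higher, where 48.2% of all genes were called. The 2 not called were Ctsa (0.32, adjusted p = 0.0749) and Ctsk. The log2 fold changes in that comparison were 0.59 for Ctsd, 0.71 for Ctsh, 0.58 for Ctss, 0.56 for Ctsb, 0.71 for Ctsc and 0.38 for Ctsl, with adjusted p from 0.00668 for Ctsh to 0.0311 for Ctsl. Ctse and Ctsz had 1.75 and 1.10 (adjusted p = 0.000249 and 0.00197). These 3 comparisons share their arrays and are given side by side only.

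Control 3 was higher than both other controls for all 10 members, and this held for 73.8% of all genes. The median difference of control 3 from the mean of controls 1 and 2 was 0.41 for the members and 0.35 for all genes. For 6 members control 3 lay between the other controls and all IFN-beta arrays, the case for 25.9% of all genes. These are the same 6 members whose groups did not overlap, since control 3 was the highest control for each, so this is not a separate result. With Ctsk left aside, the smallest parts of the way were those of Ctse and Ctsz. Control 3 stood 41.8% of the distance from controls 1 and 2 to the IFN-beta mean for Ctse and 39.4% for Ctsz. It stood at 87.7% for Ctsd and 119% for Ctsa. In log2 units control 3 was 0.73 above controls 1 and 2 for Ctse, the largest difference of the members, and 0.43 for Ctsz. The distances to the IFN-beta mean were also largest for Ctse and Ctsz (1.75 and 1.10), which makes these parts small.

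**Figure D3:**
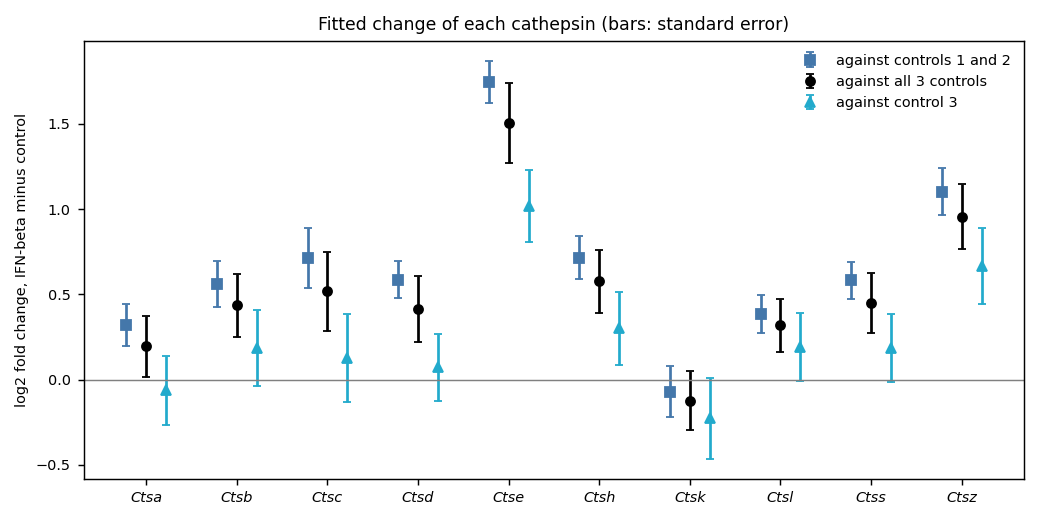
Fitted log2 fold change of each cathepsin, IFN-beta minus control, against controls 1 and 2 (squares), all 3 controls (circles) and control 3 alone (triangles), with bars of 1 standard error. For every member the value against control 3 is the lowest, and Ctse (1.02) and Ctsz (0.67) are highest in that comparison too.

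How the members moved against each other does not depend on the scaling factor of an array. Each member was therefore also set against the mean level of the other 9 on the same array, a description with no test. Ctse gained 1.09 log2 units on the others between control and IFN-beta arrays, and 0.86 when control 3 was the only control. Ctsz gained 0.48 and 0.47. The same differences were -0.72 and -0.52 for Ctsk and -0.37 and -0.34 for Ctsa. For these 4 genes the IFN-beta arrays did not overlap the controls in this measure, nor did they for Ctsd (-0.12) and Ctsl (-0.23). The share of all genes without overlap was not computed for this measure. The rises of Ctse (1.50) and Ctsz (0.96) enter the mean against which each other member was set, and so lower the others' values. How much of the negative differences this made up was not tested. Ctsb, Ctsc, Ctsh and Ctss overlapped, with differences from -0.10 for Ctsb to 0.06 for Ctsh.

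Several probes were available for 4 members, and in some of them the probes differed. Over all 29794 probes tested 21.5% were called, and the adjusted p-values of probes are taken over all of these. Of the 3 Ctsc probes, the brightest, A_52_P195839, was not called (0.52 ± 0.23), while both dimmer ones rose. A_65_P05835 (mm9 chr7:95439346-95439405) had levels of -0.06, -0.03 and 0.64 on the controls and 0.98, 1.0 and 1.03 with IFN-beta, a change of 0.82 ± 0.22 (adjusted p = 0.0348). A_55_P2072005 (mm9 chr7:95435428-95435487) changed by 1.13 ± 0.20 (adjusted p = 0.00764). Against control 3 neither was called (0.36 and 0.92, adjusted p = 0.335 and 0.0974). Both are assigned in the files to 1 Ensembl transcript other than that of the brightest probe, and the groups did not overlap for either probe.

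Ctsh had 5 probes, of which 4 were tested and all 4 had positive values. A_51_P277792 and A_66_P124326, each 60 bases long, have mm9 spans of 1152 and 3002 bases, chr9:89956440-89957591 and chr9:89966726-89969727, so each covers stretches that lie apart in the genome. Their sequences are shown because each joins such stretches within 1 probe.
A_51_P277792: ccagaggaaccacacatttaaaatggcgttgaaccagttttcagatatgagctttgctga
A_66_P124326: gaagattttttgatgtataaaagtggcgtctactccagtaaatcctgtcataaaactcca

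Both spanning probes rose, by 0.60 ± 0.17 (adjusted p = 0.0407) and by 0.82 ± 0.22 (adjusted p = 0.0356). Neither was called against control 3 (0.56 and 0.49, adjusted p = 0.196 and 0.335). The levels of A_66_P124326 were 3.49, 3.38 and 3.93 on the controls and 4.10, 4.52 and 4.64 with IFN-beta, with no overlap. The brightest probe, A_52_P51078, had 0.58 (adjusted p = 0.0613) and A_55_P2720038 had 0.35 (adjusted p = 0.199). The fifth, A_55_P2720043, was well above background on 0 arrays.

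For Ctsa and Ctsl the second probe had the opposite sign. A_52_P637360 of Ctsa (mm9 chr2:164659791-164659850) changed by -0.26 ± 0.20 (adjusted p = 0.369). A_66_P130532 of Ctsl (mm9 chr13:64463434-64463493) had levels of 1.02, 0.58 and 0.59 on the controls and 0.04, 0.30 and 0.25 with IFN-beta, lower on every IFN-beta array. Its change was -0.54 ± 0.19 (adjusted p = 0.0778). Neither passed the test. No mm9 annotation was used, so whether these probes lie in exons, introns or UTRs was not determined.

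**Figure D4:**
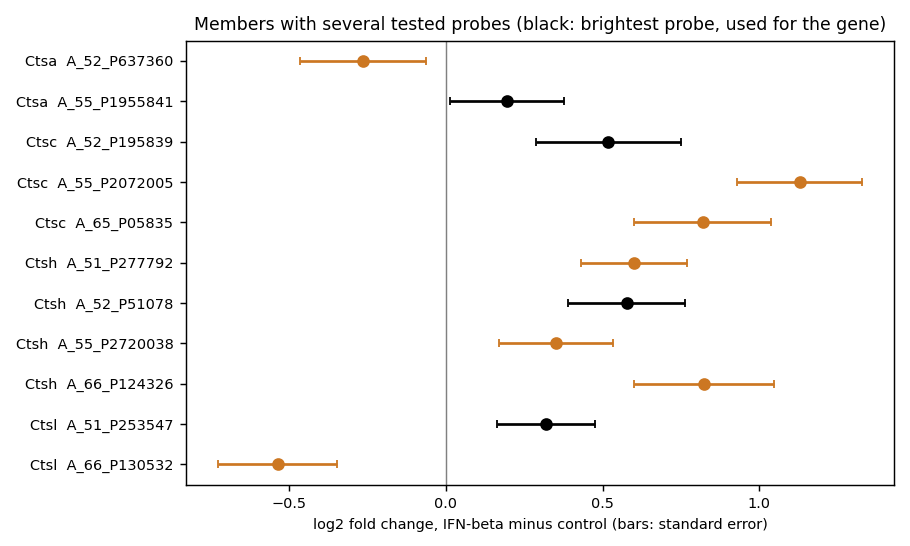
Log2 fold change, IFN-beta minus control, of each tested probe of Ctsa, Ctsc, Ctsh and Ctsl, with bars of 1 standard error; black marks the brightest probe, which stands for the gene. The 3 Ctsc and 4 Ctsh probes lie on one side of 0, from 0.35 to 1.13, while the second probes of Ctsa (-0.26) and Ctsl (-0.54) lie on the other side from the first.

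Likeness of profiles was measured as the Euclidean distance between levels centred on each gene's own mean. The profiles most like those of Ctse, Ctsz and Ctsk over the 6 arrays were sought among the 14482 tested genes with a RefSeq symbol. For Ctse they were Txk, a Tec-family kinase gene (distance 0.19), the predicted gene Gm35204 (0.19) and Itgb2l, an integrin beta chain gene (0.22). For Ctsz they were Smcr8 (0.08), Gars, the glycyl-tRNA synthetase gene (0.09), and Plin2, which encodes a coat protein of lipid droplets (0.11). For Ctsk they were Fam219b (0.05), Hmg20b (0.09) and Kyat3 (0.10).

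Of 13 other cathepsin genes on the array, 4 were tested, and 1 of these rose and 1 fell. Ctsg, the serine protease of neutrophil granules, stood at 3.20, 3.16 and 4.03 on the controls and at 5.85, 5.88 and 5.47 with IFN-beta. Every IFN-beta array was higher, by 2.27 ± 0.27 (adjusted p = 0.00134), and by 1.71 against control 3 (adjusted p = 0.012). Ctsf, a cysteine cathepsin of macrophages, went the other way. It stood at -0.31, 0.09 and -1.78 on the controls and at -3.60, -3.70 and -3.55 with IFN-beta. Its log2 fold change was -2.95 ± 0.44 (adjusted p = 0.00393), and -1.83 ± 0.20 against control 3 (adjusted p = 0.00521). Control 3 was the lowest control for Ctsf, as it was for the fibroblast markers, and the part of stromal RNA in the larger value was not tested. Ctso (-0.33) and Ctsw (0.31) did not pass. The remaining 9, mostly genes of the placental cathepsin cluster, were well above background on 2 arrays at most.

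Most of the tested genes for inhibitors of cathepsins rose. Of 14 such genes 12 were tested, 8 rose and none fell. Their median change was 1.29 on the log2 scale and 1.38 against control 3. There 7 were called: Stfa2 (1.04, adjusted p = 0.198) and Stfa2l1 (0.78, adjusted p = 0.255) were not, and Serpinb6b was. Under each of 4 other scalings 8 were called higher, against 5 without control 1 and 4 without IFN-beta 1 or without IFN-beta 2. Among probes well above background on all 6 arrays 7 of 11 were called higher, and with no filter on dim probes 4 of 14. Cst6 and Serpina3n, the genes not tested, were well above background on 3 and 2 arrays. Without the filter their values were -1.56 and -5.10, and 0.33 and 0.64 against control 3. Cst7 encodes cystatin F, which is carried into lysosomes and blocks cathepsin C among others. It stood at 0.71, 0.67 and 1.27 on the controls and at 4.32, 4.17 and 4.32 with IFN-beta. The change was 3.39 ± 0.21, or 10.5-fold (adjusted p = 9e-05), and the gap between the groups was far wider than the spread within either.

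Serpinb1a, an inhibitor of cathepsin G and elastase, rose by 1.99 ± 0.20 (adjusted p = 0.000652), from 2.18, 2.16 and 2.73 to 4.39, 4.35 and 4.31. Stfa1, a stefin A gene, rose by 2.47 ± 0.28 (adjusted p = 0.00107), and its relatives Stfa2, Stfa2l1 and Stfa3 by 1.33, 1.24 and 1.23. Serpina3g, which encodes a serpin that also blocks cysteine cathepsins, rose by 3.1 ± 0.37 (adjusted p = 0.00148). Serpina3f rose by 2.42, but was well above background on 1 of 3 controls. The stefin A genes are near-identical copies, as are those of the Serpina3 group, so their probes may share signal and the count of 8 is not a count of independent genes. Not called were Cst3, the abundant cystatin C (0.02), the stefin B gene Cstb (0.50), Serpinb6a (-0.14) and Serpinb6b (0.55). The value of Serpinb6b against control 3 was 1.13 (adjusted p = 0.0491).

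**Figure D5:**
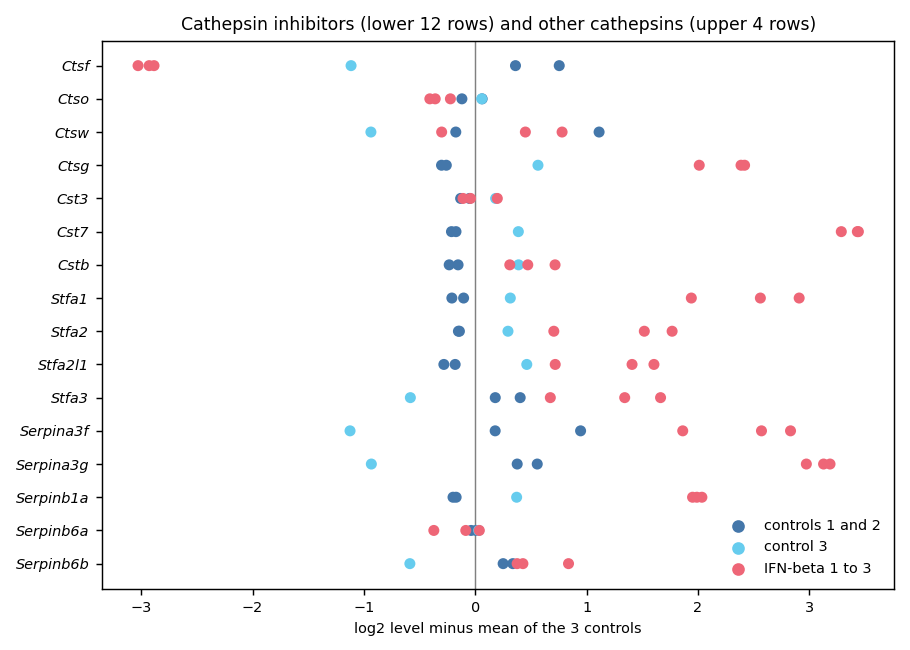
Level of each of 12 cathepsin inhibitor genes and 4 other cathepsin genes on each array, as the log2 difference from the mean of the 3 controls; dark blue marks controls 1 and 2, light blue control 3 and red the IFN-beta arrays. The IFN-beta points of Cst7 lie near 3.39 and those of Ctsf near -2.95, while Cst3 points of both groups lie around 0.

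Most of the listed markers of granulocytes and mast cells also rose. Of 11 neutrophil and granule markers, 8 rose and none fell, with a median log2 fold change of 1.53 (0.99 against control 3, where 5 were called). Their summed signal was 487 to 655 times the 75th percentile on the controls and 851 to 1045 times with IFN-beta. All 8 basophil and mast cell markers rose, with a median of 3.25 (2.78 against control 3), and their summed signal was 7.65 to 12.8 times that percentile on the controls and 69.1 to 102 times with IFN-beta. Each marker of both lists was well above background on every array. Their part in the rises of Ctse, Ctsz, Ctsg, Cst7, Serpinb1a and the stefins was not tested. For the other cells, of 12 monocyte and macrophage markers 3 rose and 4 fell, and of 2 erythroid markers 1 rose. Of 8 dendritic cell markers 2 rose and 3 fell, and of 5 B cell markers 1 rose. Of 5 T and NK cell markers 1 rose and 2 fell. Zbtb46, Clec9a and Cd209a (dendritic) and Klrb1c (NK) fell but were well above background on 0 IFN-beta arrays. Prf1 fell with 2 such IFN-beta arrays, and Ms4a1 (B cell) rose with 2 such controls. These genes passed the filter only through their higher group. Among probes well above background on all 6 arrays, 2 of 5 dendritic markers were called higher and 1 lower. There, no B cell marker of 2 was called, and of 3 T and NK cell markers 1 rose. The markers highest on controls 1 and 2 had log2 fold changes of 0.28 for Lyz2 (monocyte and macrophage), 0.41 for S100a9 (neutrophil), 3.66 for Mcpt8 (basophil), -0.62 for Siglech (dendritic), 0.01 for Cd79b (B cell) and 0.12 for Cd3e (T cell), of which Mcpt8 was called. Hba-a1, the globin gene that marks red cells, stood at 7.06 and 6.95 on controls 1 and 2 and between -0.89 and 1.13 on the other arrays. Of 8 fibroblast markers tested limma called none, and 4 had an unadjusted p under 0.05. Without control 3 all 8 were called lower (median -6.19), with array weights 8 and with spike-in scaling 5, and against control 3 alone Col1a1 and Sparc were called higher (1.49 and 1.97).

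Of 9 genes for other proteases of the lysosome limma called none, and 2 had an unadjusted p under 0.05. The median log2 fold change was 0.13, and it was -0.13 against control 3 and -0.05 with spike-in scaling. Lgmn, which encodes legumain, the asparagine-specific endopeptidase that processes several cathepsins, came nearest. It stood at 6.88, 6.76 and 7.22 on the controls and at 7.58, 7.46 and 7.64 with IFN-beta (0.61 ± 0.18, adjusted p = 0.0518). Napsa, an aspartic protease gene related to Ctsd and Ctse, had 0.61 ± 0.25 (adjusted p = 0.12). Scpep1 (0.29) and Ggh (-0.28) followed. Without control 3, 3 of the 9 were called higher.

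Of 12 genes for the sorting, regulation and partners of cathepsins, 2 rose and 1 fell, with a median of 0.20 (-0.19 against control 3). Against control 3 none of these 3 was called, with 0.47 for Nagpa (adjusted p = 0.206), 0.42 for Neu1 (adjusted p = 0.341) and -0.87 for Sort1 (adjusted p = 0.084). The 1 call there was Igf2r, the large mannose 6-phosphate receptor, which was lower (-1.26, adjusted p = 0.0239) and had -0.62 against all controls (adjusted p = 0.235). Nagpa, the enzyme that uncovers the mannose 6-phosphate tag, rose by 0.79 ± 0.19 (adjusted p = 0.0243). Neu1, the neuraminidase held in complex by cathepsin A, rose by 0.79 ± 0.22 (adjusted p = 0.0402). None of the 12 was called higher by limma with spike-in scaling, without control 1 or 2 or without IFN-beta 2 or 3, and 6 were without control 3. Sort1, which encodes sortilin, a sorting receptor independent of that tag, fell: it stood at 3.37, 3.47 and 3.45 on the controls and at 2.74, 2.65 and 2.33 with IFN-beta, a change of -0.86 ± 0.17 (adjusted p = 0.0137). The 3 controls nearly coincided for Sort1, and every IFN-beta array was lower. Psap, the precursor of the saposins, had 0.83 ± 0.25 (adjusted p = 0.0536). Tfeb, Tfe3 and Mitf, whose products bind the E-box of lysosomal genes, had -0.18, 0.04 and 0.09, none called.

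Of 9 class II genes whose products work with cathepsins none rose and 3 fell, with a median of -0.38, and of -0.76 against control 3, where 2 were called. The count of lower calls was 1 when any array other than control 3 was left out. Ciita, the transactivator of the class II genes, stood at 3.44, 3.31 and 4.06 on the controls and at 2.27, 2.45 and 2.17 with IFN-beta. Its change was -1.31 ± 0.23 (adjusted p = 0.00775). H2-Eb1 fell by 0.76 on the log2 scale (adjusted p = 0.0461) and H2-Ab1 by 0.67 (adjusted p = 0.0393). Against control 3 Ciita (-1.76) and H2-Ab1 (-0.93) were called and H2-Eb1 was not (-1.03, adjusted p = 0.0826). H2-Aa (-0.53 ± 0.24, adjusted p = 0.149) was not called. Cd74, which encodes the invariant chain that Ctss and Ctsl cut, had -0.38 ± 0.22 (adjusted p = 0.257), while Ctss had 0.45.

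The slide and the scaling bear on these counts. The 3 controls shared slide 1 with IFN-beta 1, and the other IFN-beta arrays were on slide 2. With slide as a block 0 members were called, and within slide 1 also 0, where limma called 1040 and 369 genes in all; 2 members in each fit had an unadjusted p under 0.05. Ctse then had 1.63 in both fits (adjusted p = 0.0524 and 0.133) and Ctsz 0.81 (adjusted p = 0.166 and 0.286). The inhibitors had a median of 1.72 in both fits, with 4 and 2 called. Scaled to the spike-in controls, all genes shifted by -0.18 and Ctsz missed the threshold (0.78, adjusted p = 0.0906). The gap between the members' median and that of all genes, 0.34, cannot change under such a shift, and was 0.02 under quantile normalization and 0.11 with normexp background correction. The split of all called genes, 2301 higher and 1565 lower, became 1124 and 2004 with spike-in scaling and 3836 and 1648 with normexp.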

How the data were processed

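RNA of 6 samples was hybridised to 1 Agilent array each, labelled with Cy3. Each scanner file gives the intensity of every spot as deposited by the authors, who extracted it with Agilent Feature Extraction 12.0.3.1 per the file headers. A value table deposited beside them gives log2 values, with a normalization that is not given in the sources used here, though the submitters' processing notes list limma. It served as an alternative. Its columns ranked the probes as the scanner signals did (Spearman 1.0, Pearson r from 0.996 to 0.999) with medians from 4.82 to 4.83, so the scale is log2 and the columns were not centred at 0. Its exact normalization stays unknown.

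Spots with an outlier mark were left out (135 to 174 per array), which set aside 7 probes. Spots of a probe were averaged as log2 values, and the array's 75th percentile over probes was subtracted. The 29794 probes tested lay well above background on all arrays of the control group, the IFN-beta group or both, and the brightest probe stood for a gene (19500 genes). Names came from the files and RefSeq (GRCm38.p6), which named 32989 probes. Probe coordinates are the mm9 ones of the files. The groups were compared by lmFit and eBayes of limma 3.58.1 (R 4.3.3, with data.table, version 1.17.8), adjusted by Benjamini-Hochberg with a threshold of 0.05, with 4 residual degrees of freedom. The fit was tested on simulated data with the same spread for every gene and array. Those data lack the gap between control 3 and the other controls and the slides. The members, lists and tests were chosen with earlier results of these data known. Named genes are all members, up to 4 genes of lowest p of each pathway list and every gene called in the lesser direction, the marker highest on controls 1 and 2, and the 3 nearest profiles of Ctse, Ctsz and Ctsk; others were named after their values were seen. The alternatives were normexp (offset 50), quantile and spike-in scaling, the deposited table, other probe filters and probe means, other variance models, replicate and slide blocks, and leaving out each array.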

Additional observations from a re-analysis of the deposited data

How the results depend on the processing

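The fitted values of Ctse, Ctsz and Ctsk kept their sign under all 18 alternatives to the comparison of the groups. Ctse stayed called except with slide as a block and within slide 1. Ctsz was called in 10 of 18, and missed the threshold with spike-in scaling, no filter on dim probes, both slide fits and each leave-one-out fit but those without control 3 and without IFN-beta 1. The number of cathepsins called, 2, was 1 with spike-in scaling and with no filter, and 8 with array weights. It was 0 with slide as a block and within slide 1. When arrays were left out singly it was 1 to 8, the 8 without control 3. It was 3 in the deposited table and with trend and robust eBayes, where Ctsh also passed (limma, adjusted p = 0.0332 and 0.0393). With the mean of all probes it was 3 too, and there Ctsc was the added call (0.82, adjusted p = 0.0282). The number of genes called, 3866, was 1697 with no filter, 12734 with array weights, 1040 with slide as a block, 369 within slide 1 and 1830 to 9390 when arrays were left out singly, the highest without control 3. Reversed values were those of Ctsa (-0.077 with quantile normalization, -0.0037 in the deposited table and -0.035 with the mean of all probes), Ctsd (-0.010 with quantile normalization) and Ctsl (-0.11 with the mean of all probes). Against control 3, spike-in scaling turned Ctsb (-0.15), Ctsc (-0.20), Ctsd (-0.26), Ctsh (-0.029), Ctsl (-0.14), Ctss (-0.15) and the members' median (-0.15). Quantile normalization turned Ctsd (-0.032), the deposited table Ctsa (0.038) and the mean of all probes Ctsl (-0.10). Ctse missed the threshold there with spike-in scaling (0.69) and with no filter (1.02), and Ctsz passed it with trend and robust eBayes (0.67, adjusted p = 0.0182; range of its adjusted p over these alternatives 0.0182 to 0.574). The probe means of Ctsa and Ctsl turn because their second probes have the opposite sign, and the cause of the other reversals was not tested. Same-numbered control and IFN-beta arrays deviated with correlations of 0.07, 0.02 and 0.07, against -0.091 to 0.015 between different numbers. These values are small, and whether the arrays were paired was not settled. The replicate block called 3271 genes and 2 cathepsins, and every array correlated best with that of its own number, a hint from the data and not from the design. Array weights were not run against control 3, since they cannot be estimated for a lone control.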

Other observations

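The processed signal of Ctse lay between 60.1 and 107 on the 6 arrays. With normexp background correction, which adds an offset of 50, the log2 fold change of Ctse was 1.12 and that of Ctsz 0.70, and both were called. Control 1 and control 2 resembled each other more than any other pair of the same group: over the 17522 genes that all 6 arrays measured well above background, the robust SD of their difference was 0.11, against 0.24 to 0.31 for pairs of IFN-beta arrays and 0.33 and 0.35 for control 3 against controls 1 and 2. Where 8 members were called without control 3, the spread between controls rested on that pair.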
